A study of Oryza sativa with 12 samples.

Results

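The genes described here read higher on each of 9 arrays from mutant rice inflorescence meristems than on each of 3 wild-type arrays. For every gene with a probe that listed 1 gene, the probe with the highest mean stood for the gene. Its score was the lowest of the 9 mutant arrays minus the highest of the 3 wild-type (WT) arrays, on the log2 scale of the deposited signals. The 100 highest scores were taken, after genes already known by name as KNOX, auxin, cyclin, SPL, TCP, YABBY, cellulose synthase and similar regulators were left out. That left out 67 of the 15140 measured genes, and 10 of them would otherwise have scored at least as high as the last member. Scores ran from 1.05 down to 0.31, with a median of 0.37. Members were thus chosen by the signals of these same 12 arrays, so the contrast with WT is given as a description with no test.

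RNA came from inflorescence meristems dissected at an early stage with a few bracts attached, 3 arrays per genotype. WT plants were set beside 2 single mutants, fon2-3 and asp1-10, and beside a double mutant with the genotype fon2-3 asp1-fe. The double mutant carries a different asp1 allele from the asp1-10 line, so allele and genotype combination cannot be told apart there. All plants grew outdoors in pots, and the labels give no sowing, dissection or hybridisation batch, no age, and no number of plants per sample. They also do not say whether the replicates came from separate plants, so spread between arrays may be technical in part.

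FON2 is a small secreted peptide of the CLAVATA3 type that holds back the size of the floral and inflorescence meristem through receptor kinases. ASP1 belongs to the TOPLESS-type corepressors, which are recruited to DNA by transcription factors and keep target genes silent. Loss of either loosens the control of meristem activity in the rice panicle. Neither gene had a probe under its name among the measured genes, so the labels were not checked through them.

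The tissue check gave mixed levels. All 5 meristem markers of the list used were measured with means above the median of all values (5.55). OSH15 and OSH71 read higher on every mutant array than on any WT array. OSH1 and FON1 overlapped with WT, and WOX4 had a lower mean in the mutants (difference -0.16). The floral organ genes MADS1, MADS3, MADS8 and MADS58 stayed between 1.66 and 3.28 on all 12 arrays, which is dim, whereas MADS16, the fifth measured gene of that list, read 5.24 to 6.82. Array 3 of asp1-10 stood apart from its group before any gene was considered. It correlated less well with its own genotype (mean r over all probes 0.975) than with fon2-3 (mean r 0.983). Several counts and differences that turn on it are also given without it.

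Having every mutant array above every WT array was itself common. It held for 1111 genes, which is 7.34% of those measured, against 655 genes (4.33%) with every mutant array below. After cyclic loess normalization between arrays the balance turned, to 821 genes above and 878 below. The 100 members were therefore 9.0% of the genes with no overlap in that direction, picked for the widest gaps. Just inside the limit lay LOC4335911, GT43A and LOC4327201, with scores of 0.309, 0.308 and 0.306. Just outside lay LOC4338511, LOC4324327 and LOC4347270, the first with a score of 0.305. Nothing parts the last members from the next genes.

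**Figure D1:**
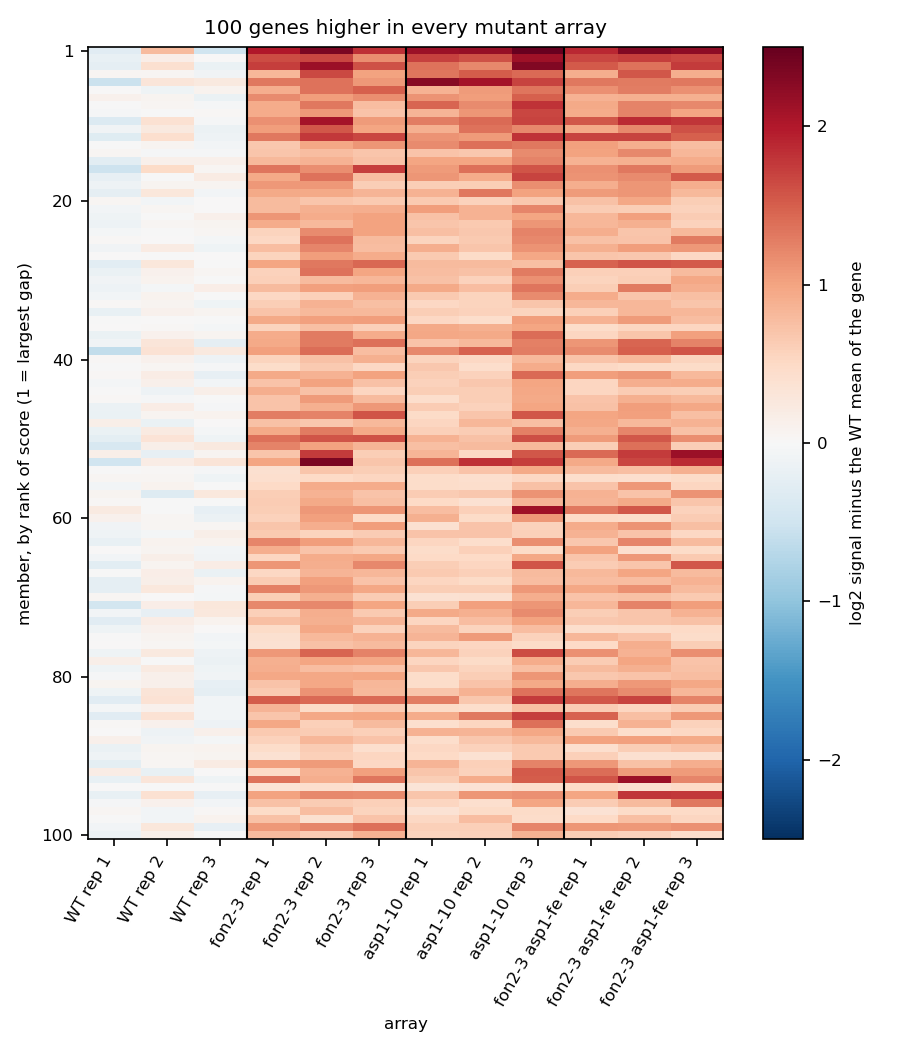
Each row is a member, ordered by score, and each column an array; colour gives the log2 signal minus the gene's own WT mean. The mutant columns are all on the positive side, as the rule requires, and the column of asp1-10 replicate 3 is the darkest of its genotype for 82 of the 100 members.

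The size of the difference from WT was moderate. A difference in each of the 3 mutants was built in by the rule, which asked for every mutant array above WT. The median member read 1.84-fold above WT in fon2-3 (log2 difference 0.88), 1.76-fold in asp1-10 (0.82) and 1.85-fold in the double mutant (0.89). The median over all 15140 genes was 0.02, 0.01 and 0.01 log2 units in the same comparisons. Differences of at least 2-fold were found for 34 members in fon2-3, 29 in asp1-10 and 31 in the double mutant, against 0.806%, 0.898% and 1.03% of all genes. Without asp1-10 replicate 3 the count for asp1-10 was 17 members and 1.08% of genes, and its median member read 1.59-fold above WT (0.67). Members were picked for their gap from WT, so these counts describe the choice. The limma fit called 3.91%, 1.4% and 2.89% of all genes higher than WT in fon2-3, asp1-10 and the double mutant, and members were not counted by it because the rule used the same arrays. In bulk RNA of this kind a larger share of cells that express a gene and more RNA per cell cannot be told apart.

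Over the 12 arrays members were brighter than the average gene, and the rule raised that mean by asking for high mutant arrays. Their mean levels ran from 4.41 to 10.13 with a median of 7.42, against 6.51 for all genes. On the WT arrays alone the median member read 6.66, 6.84 and 6.77, against 6.46, 6.48 and 6.50 over all genes. In 16 members the WT mean was below 5.55, the median of all values, compared with 36.2% of all genes, and in 5 members every genotype mean was. A level that low was not shown to exceed background.

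The rice gene table listed a further name for 2073 of the 15140 measured genes, and the rule had left out 67 genes by name. Of the 100 members 92 carried no name beyond a locus number in that table, and their functions are not annotated in the sources used here. The other 8 were BC1L2, PRMT3, DGAT1-1, PDX11, ABCG36, DOF4, OsHox32 and GT43A. They fell into transcription factors, cell wall genes, enzymes of primary metabolism, a transporter and a protein-modifying enzyme. Their means over the 9 mutant arrays were 1.48-fold to 2.82-fold above WT.

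OsHox32 is a homeodomain-leucine zipper factor of class III, a family known for specifying the upper side of leaves and for its role in shoot meristems. Its signal was 9.27, 9.07 and 9.11 in WT, 9.73, 9.98 and 9.87 in fon2-3, 9.59, 9.82 and 9.96 in asp1-10, and 10.17, 10.17 and 10.10 in the double mutant. All mutant arrays were above WT, and the 3 double mutant arrays were above all 6 single-mutant arrays. The double mutant mean of 10.15 (SD 0.041, n = 3) exceeded fon2-3 by 0.29 log2 units (95% interval 0.02 to 0.56, limma adjusted p = 0.899) and asp1-10 by 0.36 (0.09 to 0.63, adjusted p = 0.514). Neither difference passed the test. Without asp1-10 replicate 3 the difference from asp1-10 was 0.44.

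DOF4 encodes a zinc finger transcription factor of the plant-specific Dof family. Its values were 6.93, 7.61 and 7.75 in WT, 8.42, 9.78 and 8.12 in fon2-3, 8.81, 9.25 and 9.16 in asp1-10, and 8.37, 9.10 and 9.30 in the double mutant. It had the widest spread of any member over the mutant arrays (1.66 log2 units), set by fon2-3 replicates 2 and 3, and its mean in the mutants was 2.82-fold above WT.

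The wall genes were BC1L2, a COBRA-like protein of the BRITTLE CULM1 family linked to cellulose in walls, and GT43A, a glycosyltransferase of the family that builds the xylan backbone. BC1L2 was bright throughout, at 9.06, 9.35 and 9.04 in WT, 9.92, 10.38 and 9.93 in fon2-3, 10.06, 9.84 and 10.27 in asp1-10, and 10.04, 10.19 and 10.23 in the double mutant. Its genotype means of 10.08 (SD 0.261), 10.06 (SD 0.218) and 10.16 (SD 0.0988) overlapped among the mutants. GT43A read 5.34, 5.70 and 5.21 in WT, 6.51, 6.65 and 6.80 in fon2-3, 6.02, 6.01 and 6.64 in asp1-10, and 6.53, 6.50 and 6.56 in the double mutant. Replicates 1 and 2 of asp1-10 were its lowest mutant arrays, and replicate 3 lay among the fon2-3 values. Its WT mean of 5.42 (SD 0.256) was below the median of all values.

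PRMT3 encodes a protein arginine methyltransferase. It had the narrowest WT range of all members (0.0194 log2 units), at 6.64, 6.65 and 6.63. In fon2-3 it read 7.59, 7.67 and 7.69, in the double mutant 7.51, 7.70 and 7.40, and in asp1-10 7.15, 7.08 and 7.68. As with GT43A, asp1-10 replicates 1 and 2 lay below all fon2-3 arrays and replicate 3 did not. The mean of asp1-10 was 0.34 log2 units below fon2-3 (difference -0.34, SE 0.151, adjusted p = 0.525), which did not pass. Without asp1-10 replicate 3 the difference was -0.53.

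DGAT1-1, a diacylglycerol acyltransferase that makes the storage lipid triacylglycerol, lay least far above WT among the named members. It read 8.29, 8.33 and 8.25 in WT, 8.74, 8.95 and 8.80 in fon2-3, 8.96, 8.73 and 9.21 in asp1-10, and 8.81, 8.77 and 8.77 in the double mutant. PDX11, a subunit of the enzyme that makes the active form of vitamin B6, read 6.02, 6.56 and 6.66 in WT, 7.65, 7.43 and 7.27 in fon2-3, 7.17, 7.20 and 7.22 in asp1-10, and 7.03, 7.80 and 7.04 in the double mutant. The asp1-10 arrays of PDX11 were nearly equal (SD 0.03), whereas those of the double mutant spread over a wider range (SD 0.441).

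ABCG36, an ABC transporter of the pleiotropic drug resistance type, was dim in WT, at 5.24, 4.90 and 5.16. It read 5.79, 6.84 and 5.72 in fon2-3, 5.95, 5.61 and 6.65 in asp1-10, and 6.51, 6.85 and 7.24 in the double mutant. Single-mutant arrays fell into low and high values within each genotype. The double mutant mean was 0.75 log2 units above fon2-3 (95% interval 0.03 to 1.47, adjusted p = 0.907) and 0.79 above asp1-10 (0.08 to 1.51, adjusted p = 0.602), the largest differences of a member in the double mutant's favour, and neither passed the test. Without asp1-10 replicate 3 the difference from asp1-10 was 1.08.

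**Figure D2:**
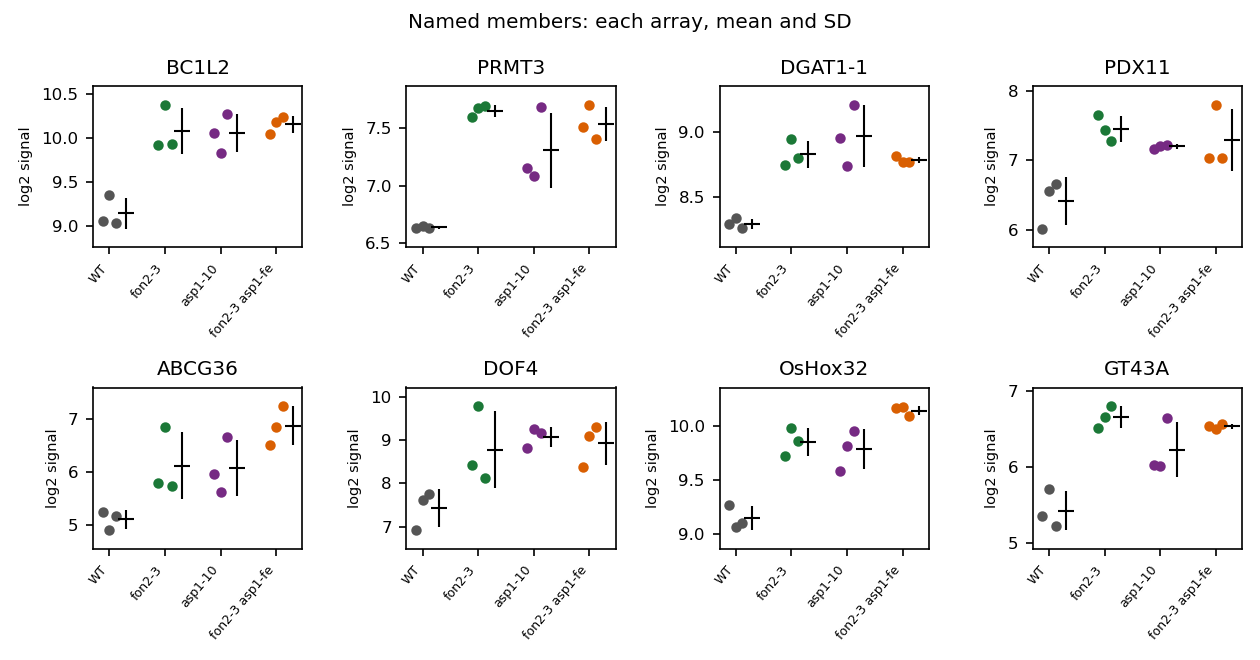
Log2 signal of the 8 named members: coloured points are the 3 arrays of each genotype, in replicate order, and the black mark with its bar is the mean with SD. Every mutant point lies above every WT point, and the asp1-10 points of PRMT3 and GT43A part into replicates 1 and 2 below and replicate 3 above.

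Among the unnamed members the widest gap belonged to LOC4329519, which read 5.78, 6.84 and 5.56 in WT, 8.07, 8.41 and 7.90 in fon2-3, 8.19, 8.24 and 8.84 in asp1-10, and 7.94, 8.37 and 8.30 in the double mutant. Its mutant mean was 4.56-fold above WT, and its WT arrays had the widest WT range of any member (1.28 log2 units). LOC4348343 followed, with a WT mean of 6.83 (SD 0.178, n = 3) and values of 8.45, 8.51 and 7.99 in fon2-3, 8.53, 8.43 and 8.95 in asp1-10, and 8.50, 8.56 and 8.49 in the double mutant. In both genes the gap between WT and mutant arrays was wider than the range of the 9 mutant arrays.

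LOC9270706 was the brightest member, at 8.66, 9.29 and 8.71 in WT, 10.62, 11.03 and 10.47 in fon2-3, 10.24, 10.09 and 11.20 in asp1-10, and 10.41, 10.25 and 10.64 in the double mutant. LOC4352527 was among the dimmest, at 3.62, 3.63 and 3.49 in WT, 4.41, 5.23 and 4.58 in fon2-3, 4.91 to 5.09 in asp1-10, and 4.49, 5.13 and 4.49 in the double mutant. Every value of LOC4352527 was below the median of all values, so its rank rests on signals not shown to exceed background.

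LOC4331887 was highest in asp1-10. It read 7.04, 7.88 and 7.81 in WT, 8.89, 8.94 and 8.66 in fon2-3, 9.85, 9.66 and 9.27 in asp1-10, and 8.89, 8.88 and 8.91 in the double mutant. The 3 asp1-10 arrays did not overlap with the other mutants. The difference of 0.77 log2 units from fon2-3 (SE 0.215, 95% interval 0.30 to 1.24) had an adjusted p of 0.333 and did not pass. Without asp1-10 replicate 3 that difference was 0.93 (limma adjusted p = 0.108).

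Of the members ranked 6 to 9, LOC4329453 and LOC4332527 varied least within WT. LOC4333657 read between 6.46 and 6.66 in WT and between 7.43 and 8.05 in the mutants. LOC4344111 lay between 6.06 and 6.33 against 7.10 and 7.74, and LOC4329453 between 7.37 and 7.45 against 8.18 and 9.21. LOC4332527 had a WT range of 0.0527 log2 units about a mean of 5.53, and mutant values of 6.24 to 7.20. For these 4 genes the gap between the groups was wider than the range of the WT arrays.

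Ranks 10 to 15 were LOC4327838, LOC4345527, LOC4344723, LOC4345329, LOC4351780 and LOC4345752. Their mutant means lay 2.91-fold, 2.30-fold, 2.85-fold, 2.05-fold, 1.82-fold and 1.90-fold above WT. LOC4327838 and LOC4344723 varied most within WT, with ranges of 0.719 and 0.725 log2 units, and WT replicate 2 was the highest WT array in both. Over all members WT replicate 2 was the highest WT array in 58, compared with 36.6% of all genes, so it set the gap for most of them.

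For 69 members the gap was wider than the range of their WT arrays (median range 0.265), and for 17 it was wider than the range of their 9 mutant arrays (median 0.634). The gap is the score by which members were chosen, so these counts describe the choice. The share of all genes was not counted for them. The steadiest members over the mutants were LOC4327261, LOC4348274 and LOC4340475, with mutant ranges of 0.122, 0.18 and 0.282 log2 units. LOC4327261 read 7.38, 7.38 and 7.22 in WT and between 7.75 and 7.87 in all 9 mutant arrays. At the other end stood LOC4330177, ABCG36 and DOF4, with ranges of 1.53, 1.63 and 1.66. LOC4330177 owed its range to asp1-10 replicate 3, which read 6.94 against 5.61 and 5.43 in the other arrays of that line.

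The array-by-array level of the whole set spread most within asp1-10. The median member read 6.66, 6.84 and 6.77 on the WT arrays, 7.62, 7.81 and 7.70 in fon2-3, 7.45, 7.51 and 7.93 in asp1-10, and 7.65, 7.67 and 7.72 in the double mutant. The lowest and the highest of the 9 mutant arrays both belonged to asp1-10. The SD between array medians was 0.26 in asp1-10, compared with 0.0946 in fon2-3 and 0.0396 in the double mutant (n = 3 each). The median over all genes stayed between 6.46 and 6.58 on all arrays.

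Array 3 of asp1-10 was the highest of its genotype in 82 members, against 39.7% of all genes. It was the highest of all 9 mutant arrays in 41 members, and asp1-10 replicates 1 and 2 were the lowest of the 9 in 49 together, 21 and 28. The share of all genes was not counted for these orders over 9 arrays, so they are not shown to be particular to the members. The median member read 0.37 log2 units higher in replicate 3 than in the mean of replicates 1 and 2, where the median over all genes was 0.02. Replicates 1 and 2 alone put the median member 1.59-fold above WT, and replicate 3 alone put it 2.17-fold above. Among the measured photosynthesis markers OEE3, a photosystem II gene, moved most the other way on the same array, at 6.75, 6.66 and 4.89 in asp1-10. Smaller shifts were read for PSAG (7.17, 7.11 and 6.47) and PSAH (5.13, 5.15 and 4.63). The dim CAB1R (2.25, 2.12 and 1.89) and CAB2R (3.01, 2.73 and 2.52) also shifted less. PSB28 stayed within the other 2 arrays, at 5.85, 5.71 and 5.73.

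**Figure D3:**
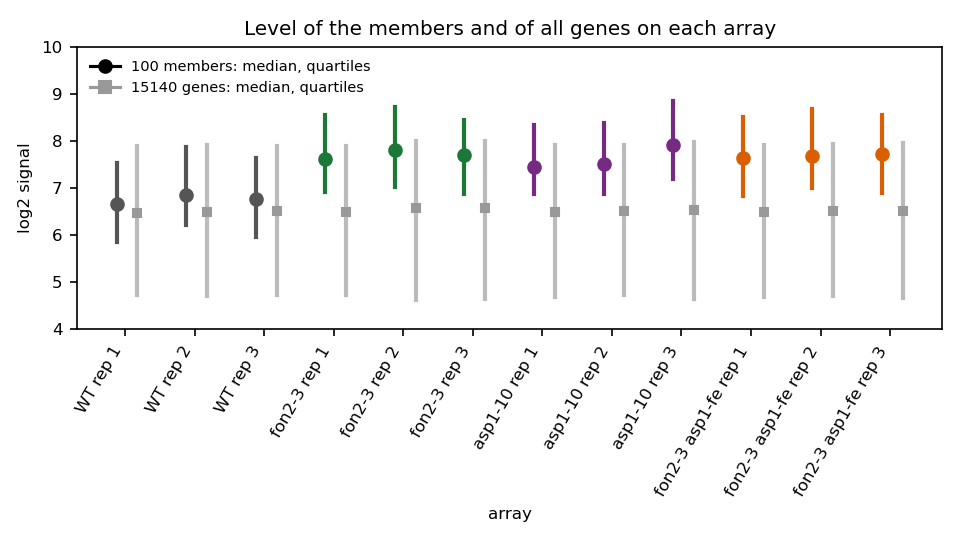
Median and quartiles of the log2 signal on each array for the 100 members (coloured) and for all 15140 genes (grey squares). The members' medians are 6.66 to 6.84 in WT and 7.45 to 7.93 in the mutants, with asp1-10 replicate 3 highest, while the grey medians stay level.

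After the genotype means were removed, the mean correlation over all pairs of members was 0.328 on the 12 arrays, and over all pairs of measured genes 0.01. Without asp1-10 replicate 3 it was 0.156 for members and 0.0107 for all genes. These correlations are descriptions, and the choice of members used the same arrays.

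Tissue markers were read on the same arrays. The summed linear signal of the 5 meristem markers (OSH1, OSH15, OSH71, FON1, WOX4) was 8.58 to 9.21 in log2 in WT, 9.39 to 10.14 in fon2-3, 9.75 to 9.91 in asp1-10 and 9.71 to 10.17 in the double mutant, and 2 of 5 had no overlap with WT. Those were OSH15 and OSH71, which with OSH1 were left out of the members by name. Their scores of 0.314 and 0.534 were above that of the last member (0.306), so this list is not separate from the rule. WOX4 went the other way, with a difference of -0.16 from WT. Of 6 measured photosynthesis markers, PSAH and OEE3 were lower on every mutant array, and the sum was 8.58 to 8.87 in WT, 7.65 to 7.93 in fon2-3, 7.68 to 8.48 in asp1-10 and 7.51 to 8.11 in the double mutant. CAB1R and CAB2R, chlorophyll-binding proteins of green tissue, read 1.73 to 3.25 on all arrays, whereas PSAG read 5.47 to 7.17 and OEE3 4.89 to 7.51. The part of tissue composition in the members' difference from WT was not tested.

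Other tissue lists were read the same way. Of 4 measured anther and tapetum genes, GAMYB and MSP1 were higher on every mutant array, by gaps of 0.04 and 0.01, and the sum was 8.23 to 8.71 in WT and 8.76 to 9.27 in the mutants. Of 2 measured vascular and secondary wall genes CESA4 was higher on every mutant array, and the sum was 7.50 to 7.71 in WT and 7.94 to 8.27 in the mutants. Of 6 polarity and midrib genes and 5 floral organ genes 0 had mutant arrays all on one side of WT. Their sums overlapped between WT and fon2-3, at 11.49 to 11.68 against 11.48 to 11.79 and at 5.92 to 6.46 against 6.06 to 7.09. The asp1-10 sums lay at 10.91 to 11.35 and 6.50 to 6.93, and the double mutant at 11.86 to 12.06 and 6.39 to 6.70.

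Differences between mutant means do not contain the WT arrays and were tested, with the WT arrays entering only the estimate of the spread. They are not wholly free of the rule, since a gene with a single low mutant array scored lower. Members were still not more alike in the mutants than all genes. Their median range over the 9 mutant arrays was 0.634 log2 units, against 0.584 for all genes. In limma 0 of the 100 members differed between asp1-10 and fon2-3, 0 between the double mutant and fon2-3, and 0 between the double mutant and asp1-10. Calls were rare everywhere: over all genes 0.00661% were higher and 0.0132% lower in the first comparison, 0.0132% and 0.00661% in the second, and 0.0198% and 0% in the third. The members' count is therefore like the background. At an unadjusted p under 0.05 there were 9, 3 and 12 members, compared with 11%, 5.22% and 9.68% of all genes.

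A missed threshold does not show that the mutants act alike on these genes. The 95% interval of a member's difference extended a median of 0.356 log2 units to each side. The observed differences ran from -0.47 to 0.77 for asp1-10 minus fon2-3, from -0.45 to 0.75 for the double mutant minus fon2-3, and from -0.70 to 0.79 for the double mutant minus asp1-10. Their medians were -0.06, 0.00 and 0.05, where those of all genes were -0.02, -0.02 and 0.01. Without asp1-10 replicate 3 the median member was -0.18 in asp1-10 against fon2-3 and 0.16 in the double mutant against asp1-10, and 0 members were called.

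**Figure D4:**
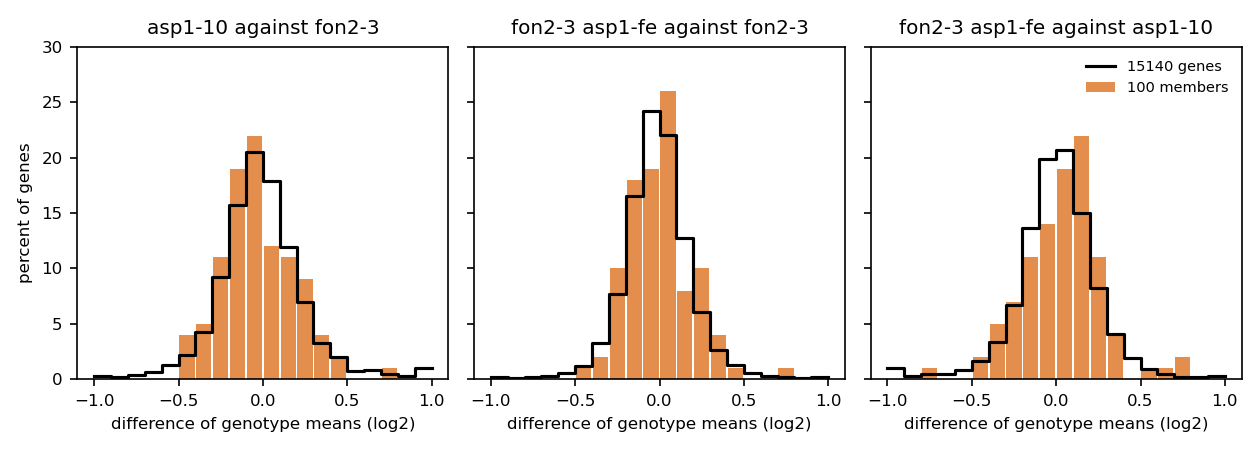
Share of the 100 members (bars) and of all 15140 genes (line) by difference between the means of 2 mutant genotypes, in bins of 0.1 log2 units, with values beyond 1 in the last bin. Members and all genes centre close to 0 in each panel, and 0 members reach a difference of 1.

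The members with the smallest p between mutants were LOC4328784, LOC4341846 and LOC4340483 for the double mutant against asp1-10. LOC4328784 read 4.99, 5.54 and 5.24 in WT, 6.25, 6.58 and 6.68 in fon2-3, 6.05, 6.05 and 6.01 in asp1-10, and 6.73, 6.83 and 6.79 in the double mutant. It was thus lowest in asp1-10 and highest in the double mutant with no overlap among the mutants, and the difference between those was 0.74 log2 units (SE 0.151, 95% interval 0.41 to 1.08, adjusted p = 0.254).

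LOC4341846 had the opposite order. It read 6.30, 6.32 and 6.24 in WT, 6.85, 7.03 and 6.89 in fon2-3, 7.24, 7.18 and 7.28 in asp1-10, and 6.75, 6.82 and 6.82 in the double mutant. The double mutant was 0.43 log2 units below asp1-10 (difference -0.43, SE 0.0947, adjusted p = 0.299), and asp1-10 was 0.31 above fon2-3 (adjusted p = 0.363).

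LOC4340483 shared that order, with 6.85, 6.96 and 6.91 in WT, 7.71, 7.80 and 7.81 in fon2-3, 7.95, 7.78 and 8.14 in asp1-10, and 7.55, 7.53 and 7.49 in the double mutant. The double mutant lay below asp1-10 by a difference of -0.43 (adjusted p = 0.392) and below fon2-3 by -0.25 (adjusted p = 0.906). Without asp1-10 replicate 3 the difference from asp1-10 was -0.34. These 3 genes were named for the smallest p and read in opposite orders, and none of the differences passed the test.

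Which mutant was highest or lowest depended on asp1-10 replicate 3. With all arrays the double mutant had the highest mean in 37 members, fon2-3 in 35 and asp1-10 in 28, compared with 29.5%, 37.6% and 32.9% of all genes. The asp1-10 line had the lowest mean in 49, against 39.6% of all genes. Without its replicate 3 it was lowest in 70 (42.4% of all genes) and highest in 17 (35.3%). The double mutant's mean lay below both single mutants in 27 members (31.6% of all genes), or in 16 without that array (29.3%). Without that array it lay above both in 41 (28% of all genes). Arrays without overlap were found for 5 members higher and 4 lower in asp1-10 than fon2-3 (5.7% and 9.53% of all genes), for 6 higher and 7 lower in the double mutant than fon2-3 (4.96% and 6.79%), and for 3 higher and 9 lower in the double mutant than asp1-10 (8.6% and 6.61%). None of these 6 counts was more than 1.5 times its background, and those lower in asp1-10 than fon2-3 and higher in the double mutant than asp1-10 were below it. Without asp1-10 replicate 3 those were 37 members (21.2% of all genes) and 44 (19.5%), and the opposite directions held 6 (14.2%) and 10 (15.1%). With 2 arrays in a group non-overlap is commoner for any gene.

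A second probe existed for 3 members. For LOC4325976 the chosen probe had a mean of 7.72 in WT and 8.74 in the mutants, and the other probe 5.47 and 6.10, so all mutant arrays were above WT on both. For LOC9267846 the chosen probe read 7.54 to 7.72 in WT and 8.16 to 8.51 in the mutants, whereas the other read 5.32 to 5.77 and 4.96 to 5.68. LOC9271741 behaved likewise, with 6.62 to 6.73 against 7.04 to 7.46 on the chosen probe and 4.81 to 5.07 against 4.23 to 5.03 on the other. In the last 2 genes the probes disagree. The second probe of all 3 genes was dim in WT, with means of 5.47, 5.55 and 4.95 in the order given, near or below the median of all values (5.55).

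Members were scattered through the gene order of the rice gene table (assembly ASM3414082v1). A single pair, LOC4328303 and LOC4328304, were next to each other. LOC4328303 read 6.11, 6.33 and 6.36 in WT and between 6.68 and 6.98 in the mutants, and LOC4328304 read 5.62, 5.80 and 5.69 in WT and between 6.25 and 6.84. Of the 197 measured genes that flank a member and are not members, 20 (10.2%) had every mutant array above every WT array, and their median difference from WT was 0.08 log2 units against 0.01 for all genes. That share is near the 7.34% of all genes.

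The choice of members depended on single arrays and on the score. Of the 100, 89 were chosen again after cyclic loess normalization between arrays, and all 100 then still had every mutant array above every WT array. With genotype means in place of extreme arrays in the score only 47 were chosen again, and without WT replicate 2 only 52 were.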

How the data were processed

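Total RNA was labelled as sense-strand DNA and hybridised to 1-colour Affymetrix arrays, 12 in all. The deposited values were made by the authors with Affymetrix Expression Console 1.3, per the submitters' processing notes, and were taken as log2 signals from their range. How background was corrected, how arrays were normalized and which log base was used is not given in the sources used here. Precision is limited by the number of arrays.

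Of 54922 probes 15829 listed 1 gene. All probes of the 12 arrays entered 1 limma fit (version 3.58.1, R 4.3.3; lmFit, then eBayes) that gave each genotype its own mean, with 8 residual and 3.22 prior degrees of freedom. Tests were two-sided, with Benjamini-Hochberg adjustment over all probes and a threshold of 0.05; the fit was tested on simulated data. Because separate plants are not stated, these p-values reflect spread among the arrays alone, which may be technical.

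The members and lists were chosen with earlier results of these data known. Named genes were the 15 highest scores, all members with a name, 3 genes on each side of the limit, the 3 smallest p between mutants where none was called, members with several probes and the 3 widest and 3 narrowest. Role lists by gene description and promoter motifs were planned and not run, since the reference tables used hold neither descriptions nor sequences. Marker MADS2 matched 2 genes and was left out. Correlations of deviations between same-numbered arrays ran from -0.182 to 0.106, so replicate numbers were not taken as pairs. Alternatives were cyclic loess, median centring, a dim-probe filter, fitting only the compared groups, a variance trend with robust prior, array weights, a replicate block, a minimum log2 change of 1, other scores and leaving out each array.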

Additional observations from a re-analysis of the deposited data

Results flagged for a closer look

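Probes with no listed gene were outside the choice of members. Of 38653 such probes, 607 (1.57%) scored at least as high as the last member, the highest at 1.56, against 110 of 15140 genes (0.727%). Many shared their values on all arrays: the 607 probes held 284 distinct profiles, which is 0.836% of the 33978 distinct profiles without a gene. The signal was singled out because it lies above the WT arrays in probes from which no member could be chosen, although they entered the fit over all probes.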

How the results depend on the processing

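The count of members called between mutants was 0 in all 60 alternative fits, and the 9 single-member differences kept direction and side of the threshold in all 180. Many of these settings cannot move the difference, such as leaving out an array outside the comparison. The limma adjusted p-values of the 9 were 0.254 to 0.907 in the main fit, far from the threshold, so the 180 say little about steadiness. Counts over all probes were less steady. For asp1-10 against fon2-3 there were 6 calls, and 14 after loess, 41 without dim probes, 1 with only the compared groups, 22 with trend and robust prior, 13 with array weights and 1 to 300 leaving out an array, 300 without asp1-10 replicate 3. For the double mutant against fon2-3 there were 5, and 2 with only the compared groups and 2 to 8 leaving out an array. For the double mutant against asp1-10 there were 8, and 14 without dim probes, 3 with only the compared groups and 4 to 100 leaving out an array, 100 without asp1-10 replicate 3. Against WT, fon2-3 gave 2866 calls, and 4718 without dim probes, 4421 with array weights, 1134 with a change of at least 1 and 1 (without fon2-3 replicate 2) to 4554 leaving out an array. The asp1-10 line gave 1157, and 2507, 2 with only the compared groups, 1775 with trend and robust prior, 496 with a change of at least 1 and 163 (without WT replicate 1) to 1202. The double mutant gave 2358, and 4191 without dim probes, 4192 with array weights, 989 with a change of at least 1 and 18 (without its replicate 2) to 3998. With the replicate block the 6 counts were 1, 2, 4, 1475, 508 and 1147, and same-numbered arrays shared only a number. The members' median over WT in the double mutant was 0.81 after loess. Leaving out an array, medians ran from 0.80 to 0.93 in fon2-3, 0.67 to 0.90 in asp1-10 and 0.84 to 0.93 in the double mutant over WT, from -0.18 to 0.0105 for asp1-10 minus fon2-3, -0.0539 to 0.0447 for the double mutant minus fon2-3 and -0.0138 to 0.16 for the double mutant minus asp1-10. Of the 100 members 47 were chosen again with genotype means in the score and 52 to 99 leaving out an array. Where no value shows it, the cause was not tested.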
